A study of Homo sapiens with 9 samples.

Results

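The change in all genes between C28/I2 cells carrying a short hairpin RNA (shRNA) against carbonic anhydrase 2 (CA2) and C28/I2 cells of the Scrambled control group is described here. C28/I2 is an immortalised human chondrocyte line, and every library is total RNA from that line, so the comparison concerns 1 line and no primary cartilage. Each group holds 3 libraries, 3 of CA2 shRNA cells and 3 of Scrambled cells, out of 9 libraries in the series, and the remaining 3 are Control cells with no construct named in the labels. Members are all genes with enough counts to test, which were 19812 of the 60671 genes in the deposited tables. Of the 40859 genes not tested, 19530 had a count of 0 in all 6 libraries compared. The labels give neither the hairpin sequence nor whether it was a single hairpin, a clone or a pool, and they do not name separate cultures for the replicates. The p-values therefore cover the spread between these libraries alone, and that spread may be technical.

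An shRNA is transcribed in the nucleus, exported, and cut by Dicer into a short duplex, and 1 strand is loaded into an Argonaute protein as a guide. The guide silences an RNA that it matches along its length, and it can also lower RNAs that match only its seed, the stretch of bases near its 5' end, as a microRNA does. Messenger RNAs with a seed match in the 3' untranslated region (3' UTR) usually lose more RNA by that route than those with a match in the coding sequence.

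An 8-base word, ACACCAAA, was in the 3' UTR of 35.8% of the 109 searched coding genes that fell 2-fold or more, and the following sites show where it lies in 6 falling genes. The word was picked from these same values in an earlier account, so what follows describes it and does not test it. Each line is 30 bases of 3' UTR from GENCODE 29 on GRCh38, 5' to 3' on the gene's strand, with the word in capitals.
PPDPF: caacacagcagACACCAAAaaccagtgaga
ONECUT2: gaaaacacagcACACCAAAgaagcagaata
LPP: cccagtttaagACACCAAAtataacaagta
ACOT7: tgcaaacctacACACCAAAgctttatttat
LPGAT1: aaggtaaagcaACACCAAAtaaaagcccac
SHROOM4: tttgtactaggACACCAAAgacatcaagta
On the plus strand the PPDPF stretch lies at chr20:63522034-63522063, the ONECUT2 stretch at chr18:57477983-57478012 and the LPP stretch at chr3:188876023-188876052. On the minus strand the ACOT7 stretch lies at chr1:6264411-6264440, the LPGAT1 stretch at chr1:211748017-211748046 and the SHROOM4 stretch at chrX:50596359-50596388. ONECUT2, a transcription factor, holds 3 copies of the word in a 3' UTR of 14574 bases, whereas PPDPF and ACOT7 hold 1 copy each in 3' UTRs of 327 and 324 bases.

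Libraries held 16994368 to 34261244 counts, and the 3 CA2 shRNA libraries lay between 16994368 and 27070048. Mitochondrial genes took 4.08% to 6.86% of the counts in Scrambled and 5.55% to 6.62% in CA2 shRNA. Scrambled 2 stood apart from the other Scrambled libraries, with the lowest mitochondrial share and 234 CPM (counts scaled to the library total) of the nuclear RNA NEAT1 against 622 and 644 CPM. Control 3 likewise had the lowest mitochondrial share and NEAT1 level of its group, at 158 CPM against 682 and 309 CPM. The CA2 shRNA libraries had 529, 259 and 371 CPM of NEAT1. Of 15 chondrocyte markers 9 were tested, SOX9 rose and COMP fell, and the markers COL9A1 and HAPLN1 were at 0 in the 6 libraries compared. The summed level of the chondrocyte markers was 113 to 120 CPM in Scrambled and 126 to 128 CPM in CA2 shRNA. Immune markers summed to 3.41 to 4.29 CPM and 2.94 to 3.91 CPM, and of 6 epithelial markers KRT8 rose, with summed levels of 338 to 366 CPM and 385 to 425 CPM. Of 6 neural markers SNAP25 fell, with summed levels of 49.5 to 55.3 CPM in Scrambled and 42.3 to 45.4 CPM in CA2 shRNA, and osteoblast markers, none of which passed, summed to 66.6 to 71.1 CPM and 61.1 to 66.0 CPM. The part of these differences in the results was not tested.

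The targeted gene comes first. CA2, the cytosolic enzyme that hydrates carbon dioxide, had 41, 53 and 61 counts in the Scrambled libraries and 28, 15 and 30 in the CA2 shRNA libraries. Every CA2 shRNA library was below every Scrambled library. The log2 change was -0.77 (SE 0.231, adjusted p = 0.0276 by edgeR's quasi-likelihood test with Benjamini-Hochberg adjustment). That call was lost without the filter on low counts (adjusted p = 0.0544), after thinning all libraries to 1 depth (0.165), and when 1 library was left out, either Scrambled 2 (0.0533) or 3 (0.103) or CA2 shRNA 2 (0.1) or 3 (0.109). The coding sequence of CA2, 783 bases long, holds the 8-base word once, starting at base 371, and its untranslated regions do not hold it. That word occurs in 4.48% of 14030 coding sequences of genes tested and in 3.68% of their 3' UTRs.

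Across all genes, 1589 rose and 1759 fell at an adjusted p under 0.05, which is 16.9% of the genes tested, 8.02% higher and 8.88% lower. At an unadjusted p under 0.05, 5746 genes passed. The falls were the larger changes. A gene that rose changed by a median of 0.32 on the log2 scale, with the top 10% of rises starting at 0.62, and a gene that fell by a median of -0.47, with the lowest 10% starting at -1.0. Among changes of less than 1.2-fold, 506 genes rose and 258 fell. From 1.2 to 1.5-fold the counts were 900 and 870. From 1.5 to 2-fold they turned to 147 rises and 458 falls, from 2 to 3-fold to 32 and 145, and at 3-fold and over to 4 and 28. At the TMM scaling, changes under 1.2-fold were thus more often rises, and changes over 1.5-fold more often falls. The median over all genes tested was -0.03. The split of the total depended on scaling: 1810 rose and 1596 fell with DESeq2 size factors, and 1372 rose and 1971 fell with upper-quartile factors.

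In 32.3% of all genes tested, the 3 libraries of one group all lay above the 3 of the other, and in the rest the groups overlapped. Among genes called, which were chosen for that difference, the groups did not overlap in 98.4% of rises and 97.7% of falls. The Control cells, which are not part of the contrast, had a mean nearer to Scrambled than to CA2 shRNA for 95.7% of the rising genes and 96.9% of the falling genes. The share over all genes tested was not computed, so these percentages cannot be read as particular to the genes called. For 436 of the 1589 rising and 809 of the 1759 falling genes, the Control mean lay outside the range of the Scrambled and CA2 shRNA means. Control libraries did enter the estimate of the spread.

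**Figure D1:**
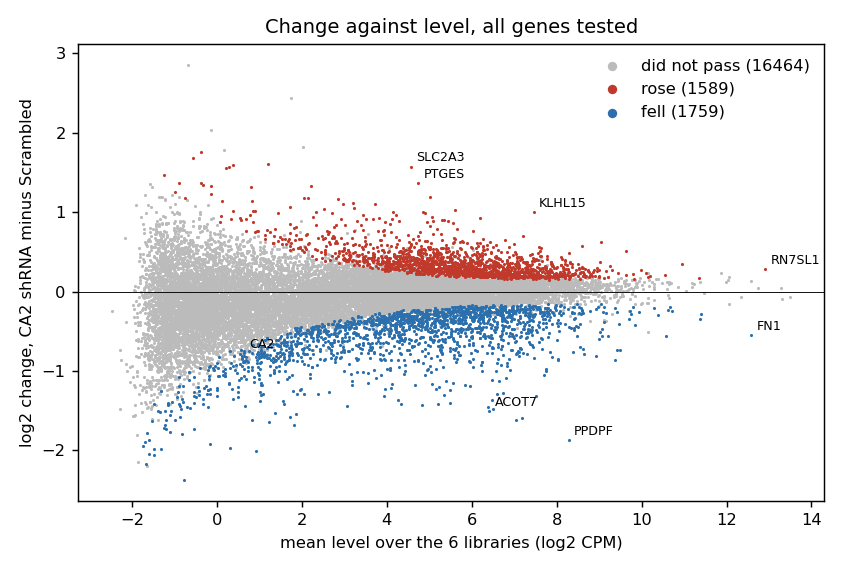
Log2 change of each gene tested (vertical axis, CA2 shRNA minus Scrambled) against its mean level over the 6 libraries compared (horizontal axis, log2 CPM). Red points are the 1589 genes that rose, blue points the 1759 that fell and grey points those that did not pass, and the blue points reach farther from 0 than the red ones at most levels, with PPDPF at -1.87 among the abundant genes.

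The most secure changes were falls. PPDPF, named as a factor of pancreatic progenitor differentiation and proliferation, stood at 502, 506 and 461 CPM in the Scrambled libraries and at 136, 131 and 135 CPM in the CA2 shRNA libraries. Its log2 change was -1.87 (SE 0.0612, adjusted p = 2.48e-12 in edgeR), with Control libraries at 462, 510 and 525 CPM. The 2 groups are far apart, and the 3 CA2 shRNA values differ by less than the Scrambled ones do. ACOT7, a thioesterase that splits fatty acyl-CoA, went from 130, 129 and 120 CPM to 45.8, 43.7 and 43.6 CPM (log2 change -1.51, SE 0.0574, adjusted p = 1.68e-11 in edgeR). RNF10, a RING finger ubiquitin ligase, went from 129, 130 and 128 CPM to 52.5, 50.02 and 48.3 CPM. GNPDA1, the deaminase of glucosamine phosphate, and DBNDD1, a gene with a dysbindin domain, completed the 5 smallest p-values, with log2 changes of -1.40 and -1.42. All 5 genes hold the 8-base word in the 3' UTR. Reads of RNF10 and DBNDD1 can also come from the overlapping genes COQ5 and GAS8, since the strand setting of the counting is not given in the sources used here.

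Among genes of at least 100 CPM, the largest falls after PPDPF were LPP and MARCKS. LPP, a scaffold of focal adhesions, went from 154, 245 and 200 CPM to 61.4, 62.0 and 71.4 CPM (log2 change -1.62, SE 0.163, adjusted p = 0.000342 in edgeR). MARCKS, a membrane protein that binds actin and is phosphorylated by protein kinase C, went from 173, 242 and 238 CPM to 89.3, 57.0 and 69.4 CPM (log2 change -1.6, SE 0.215, adjusted p = 0.0028 in edgeR). Neither gene's groups overlapped, though the Scrambled 1 value was the lowest of its group in both. The rises in that band were smaller. KLHL15, a substrate adaptor of a cullin ubiquitin ligase, went from 106, 124 and 122 CPM to 233, 226 and 243 CPM (log2 change 1.0, SE 0.0608, adjusted p = 5.26e-09 in edgeR). PHLPP2, a phosphatase that acts on AKT, rose by 0.70, and KATNAL1, a microtubule-severing protein, by 0.65. These 3 rising genes hold no copy of CACCAA, the 6-base core of the word, in the 3' UTR, and neither do 72.7% of the coding genes searched. KLHL15 holds the core in its coding sequence.

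Between 10 and 100 CPM the largest rises exceeded those of the abundant genes. The glucose transporter gene SLC2A3 had 11.9, 12.6 and 11.3 CPM in Scrambled against 40.2, 32.9 and 33.2 CPM in CA2 shRNA, and PTGES, a prostaglandin E synthase, had 15.1, 15.0 and 14.7 CPM against 34.2, 41.9 and 39.5 CPM. The near-identical paralog SLC2A14 makes the reads of SLC2A3 uncertain. Both groups of 3 were tight beside the distance between them, with log2 changes of 1.57 and 1.37. YOD1, a deubiquitinase, rose by 1.19, although its reads may include those of the overlapping gene PFKFB2. LPGAT1, an acyltransferase of phospholipids, fell by 1.48 on the log2 scale, and PALLD, the actin-bundling protein palladin, by 1.46.

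From 1 to 10 CPM, OASL, a gene of the oligoadenylate synthetase family, had 1.33, 1.26 and 0.846 CPM in Scrambled against 3.64, 3.20 and 3.51 CPM in CA2 shRNA (log2 change 1.61, SE 0.251, adjusted p = 0.000202 in edgeR). CH25H, which makes an oxysterol from cholesterol, rose by 1.59, and RASGRP3, an exchange factor for Ras proteins, by 1.57. The last call was lost without CA2 shRNA 2 (adjusted p = 0.0598). AMTN, the tooth enamel protein amelotin, went from 2.75, 2.92 and 3.48 CPM to 0.449, 0.784 and 0.987 CPM (log2 change -2.01, SE 0.262, adjusted p = 3.08e-05 in edgeR), and it holds no copy of the word's 6-base core, CACCAA, in the 3' UTR or the coding sequence. ONECUT2 fell from 4.53, 5.94 and 5.65 CPM to 1.90, 1.33 and 1.75 CPM and holds the word in both. Below 1 CPM the largest changes rested on few reads. HKDC1, a hexokinase family gene, had 0.444, 0.369 and 0.237 CPM in Scrambled against 1.2, 1.39 and 0.987 CPM in CA2 shRNA, and its call was lost without Scrambled 3 (adjusted p = 0.0746) or CA2 shRNA 2 (0.0626). F2RL2, a receptor of the thrombin receptor family, rose by 1.68, a call lost without CA2 shRNA 2 (adjusted p = 0.0969) or CA2 shRNA 3 (0.056).

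**Figure D2:**
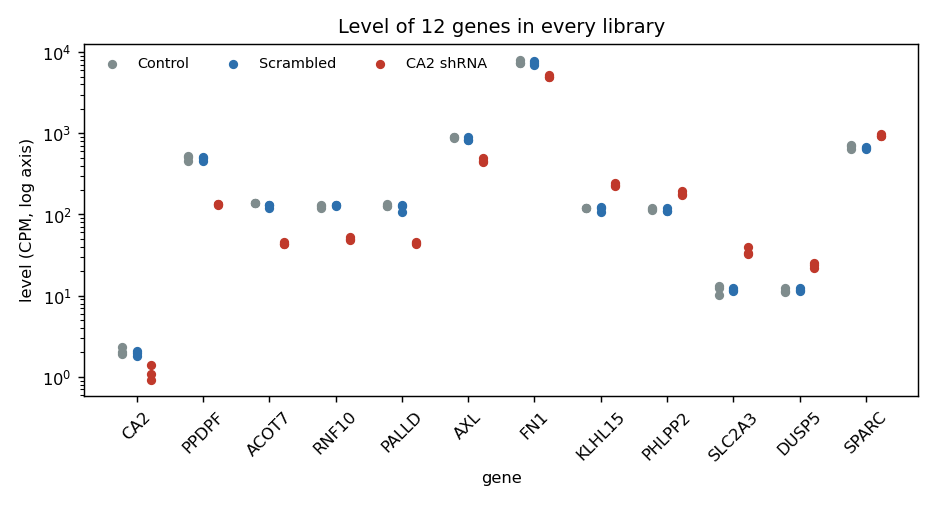
Level of 12 genes in every library on a log axis in CPM, with Control in grey, Scrambled in blue and CA2 shRNA in red. In each gene the 3 red points lie to one side of the 3 blue points, from PPDPF at 131 to 136 against 461 to 506 CPM to SLC2A3 at 32.9 to 40.2 against 11.3 to 12.6 CPM.

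In summed TMM-scaled CPM, a relative measure, genes that passed lost more than they gained. Over all genes tested 61674 CPM were gained and 55020 CPM lost. That balance depends on the TMM scaling, and no change in RNA mass was measured. Rising genes held 13.7% of the summed CPM of all genes tested in Scrambled and 16.7% in CA2 shRNA, and falling genes held 14.9% and 11.1%. The falling genes lost 36820 CPM and the rising genes gained 30310 CPM, and 50% of these sums was reached with the 131 genes of largest loss and the 224 of largest gain. The largest loss was that of FN1, the matrix protein fibronectin, which had 6977, 7665 and 7266 CPM in Scrambled against 4898, 4921 and 5157 CPM in CA2 shRNA (log2 change -0.55, SE 0.0585, adjusted p = 3.18e-06 in edgeR). THBS1, the matrix protein thrombospondin, MKI67, the proliferation antigen Ki-67, ACTG1, a cytoplasmic actin, and AXL, a receptor tyrosine kinase, followed. Their log2 changes were -0.35, -0.56, -0.28 and -0.86, and of these 5 calls that of ACTG1 was the only one lost in an alternative, without CA2 shRNA 3 (adjusted p = 0.0583). AXL holds the 8-base word in the 3' UTR and MKI67 in the coding sequence, FN1 and THBS1 hold a 7-base part of it in the coding sequence, and ACTG1 holds the 6-base core alone.

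The largest gain was in RN7SL1, the RNA of the signal recognition particle, with 7517, 6327 and 7109 CPM in Scrambled against 8527, 9102 and 7833 CPM in CA2 shRNA (log2 change 0.28, SE 0.0793, adjusted p = 0.0224 in edgeR). Copies of this gene are nearly identical, so its count is uncertain, and the call was lost without Scrambled 3 (adjusted p = 0.0681) or CA2 shRNA 2 (0.162) and with limma-voom (0.054). The chaperone gene CALR, which encodes calreticulin, rose by 0.35, the matrix glycoprotein gene SPARC by 0.52, and ANKRD52, a phosphatase subunit that acts on Argonaute proteins, by 0.63. SPARC stood at 662, 669 and 640 CPM in Scrambled against 923, 977 and 920 CPM in CA2 shRNA, and ANKRD52 at 414, 411 and 411 CPM against 593, 688 and 627 CPM. The pyruvate kinase gene PKM, with a log2 change of 0.17, passed narrowly (adjusted p = 0.0476 in edgeR), and was lost in 11 alternatives.

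The level of a gene set what could be called. Genes were placed in deciles by their mean RPKM in the Control libraries, which took no part in the contrast. RPKM here is TMM-scaled CPM divided by gene length. In the lowest decile 1.21% of genes rose and 2.93% fell, in the fifth 5.91% and 8.88%, and in the highest 18.02% and 12.8%. Falls outnumbered rises in the lowest 6 deciles, and rises outnumbered falls in the highest 4. The second part of that order did not hold throughout. With deciles of CPM in place of RPKM the highest decile had 316 rises and 330 falls, and without Scrambled 3 the highest held 148 and 224, the ninth 145 and 212, and the seventh 152 and 155. The median standard error went from 0.40 in the lowest decile to 0.061 in the highest, and the median count per library from 14.3 to 4006. A called gene of the lowest decile accordingly had a median absolute log2 change of 1.24, and one of the highest decile 0.26. The median change of all genes in a decile went from -0.21 in the lowest to 0.07 in the highest. Low-level protein-coding genes showed it as well, with medians over the lowest 3 deciles of 0.027 to 0.10 in the Scrambled libraries and -0.0781 to -0.0245 in the CA2 shRNA libraries, taken as log2(CPM + 0.5) relative to the mean of the 6 libraries. In the Control libraries the same median ran from -0.0404 to 0.0924, so Control spans both groups.

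**Figure D3:**
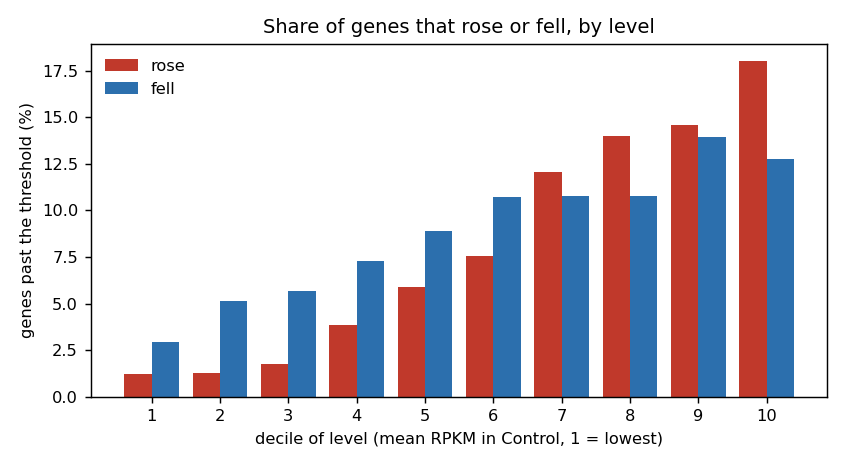
Share of genes that rose (red bars) and fell (blue bars), in percent of the genes tested, in each decile of the mean RPKM in Control, from the lowest to the highest. Rises go from 1.21% to 18.02% and falls from 2.93% to 12.8%, with more falls than rises up to the sixth decile, while without Scrambled 3 falls were also the more numerous in the seventh, ninth and highest.

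Genes present in only one of the groups were rare and low. None of the genes tested was at 0 in all 3 libraries of either group. Among genes not tested, 265 had counts in every Scrambled library and 0 in every CA2 shRNA library, and 58 the reverse, and the Scrambled libraries were also the deeper ones on the whole. The highest of them were at a few counts, such as FPR1, a formyl peptide receptor, with 0, 0 and 0 counts in Scrambled and 4, 2 and 6 in CA2 shRNA, and PCDHA8, a protocadherin, with 1, 3 and 10 counts in Scrambled and 0, 0 and 0 in CA2 shRNA.

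Gene classes differed in direction. Of 14075 protein-coding genes 1575 rose and 1501 fell, with a median log2 change of 0.01 that became -0.01 with upper-quartile factors. Of 3091 long noncoding genes 7 rose and 195 fell, with a median of -0.22. Of 1895 pseudogenes 3 rose and 44 fell, with a median of -0.07, and the falls numbered 22 without Scrambled 3 and 81 without both Control 3 and Scrambled 2. Among 179 small noncoding genes RN7SL1 rose and 0 fell, and of 23 genes of the mitochondrial genome 1 rose and 0 fell. The count of falling long noncoding genes was 96 without Scrambled 3 and 267 without both Control 3 and Scrambled 2, and their median lay between -0.25 and -0.17 over all alternatives.

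Long noncoding genes are mostly low, with a median level of 1.02 CPM against 25.02 CPM for protein-coding genes, yet their lower median was present at every level. In deciles of CPM their median change lay between -0.16 and -0.28 in each decile, with 7 and 8 such genes in the highest deciles, whereas that of protein-coding genes went from -0.18 in the lowest decile to 0.04 in the highest. By library, the median of the long noncoding genes was 0.0093 to 0.147 in Scrambled and -0.131 to -0.0405 in CA2 shRNA, without overlap. The Control libraries ranged from -0.113 to 0.141 and so spanned both groups, with the lowest value in Control 3. The lowest Scrambled value was that of Scrambled 2. Named subsets moved alike: 1 of 307 LINC genes rose and 32 fell, 2 of 748 antisense genes rose and 64 fell, and 0 of 310 divergent transcripts rose and 23 fell. Of the 195 falling long noncoding genes, 106 (54.4%) overlap the exons of another tested gene, as do 1276 of the 2889 that did not pass (44.2%). For 27 of the 106 the overlapping gene fell too. Reads from the 2 strands cannot be told apart there.

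Named long noncoding genes spanned both directions. ZNNT1 had 3.29, 3.99 and 3.42 CPM in Scrambled against 1.15, 0.784 and 1.39 CPM in CA2 shRNA (log2 change -1.64, SE 0.216, adjusted p = 3.3e-05 in edgeR), and FOXD3-AS1, antisense to the gene of the transcription factor FOXD3, had 5.37, 4.02 and 5.41 CPM against 1.85, 1.33 and 1.72 CPM. DNAH10OS, opposite the dynein gene DNAH10, fell by 1.97 on the log2 scale. CARMN, a noncoding RNA of smooth muscle and heart, had 3.11, 1.37 and 4.30 CPM against 1.10, 1.09 and 1.17 CPM, with Scrambled 2 close to the CA2 shRNA values, and its call was lost in 7 alternatives. The largest rise was CARD8-AS1, from 1.2, 1.07 and 1.25 CPM to 2.60, 2.35 and 2.23 CPM (1.02, SE 0.214, adjusted p = 0.00275 in edgeR). LINC00973 rose by 0.75, a call lost without Scrambled 3 (adjusted p = 0.0614) or CA2 shRNA 3 (0.0564).

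**Figure D4:**
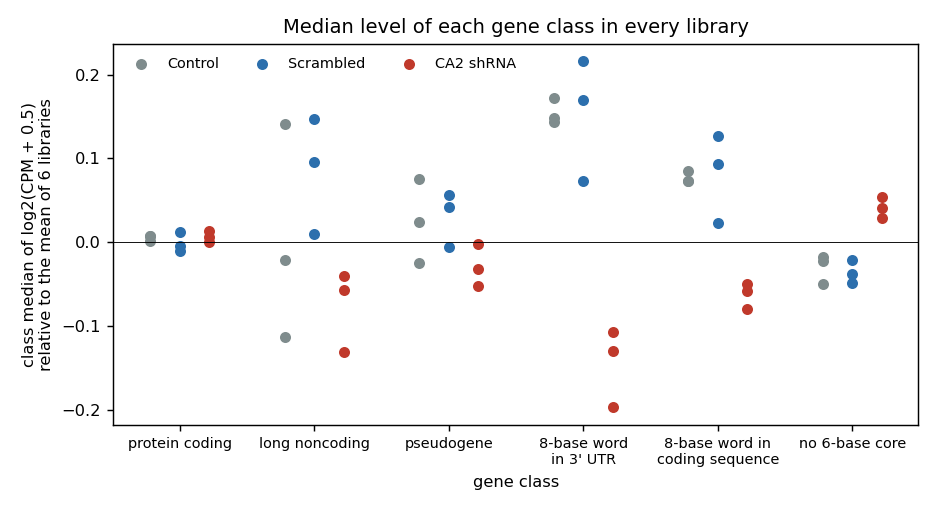
Median of log2(CPM + 0.5), relative to each gene's mean over the 6 libraries compared, for 6 gene classes in every library, with Control in grey, Scrambled in blue and CA2 shRNA in red. Holders of the 8-base word in the 3' UTR are at -0.197 to -0.107 in CA2 shRNA against 0.0725 to 0.216 in Scrambled with Control at 0.144 to 0.172, while for long noncoding genes the Control points spread over both groups.

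Protein-coding genes also differed by the 8-base word. A 3' UTR could be searched for 13852 of them, and of these 517 held ACACCAAA, of which 17 rose and 236 fell, or 45.6% falling, with a median log2 change of -0.30. Of the 10065 genes with no 6-base core CACCAA, 1284 rose and 665 fell, or 6.61% falling, with a median of 0.04. Shorter matches lay between them. The 7-base part ACACCAA alone was held by 606 genes, 39 rising and 150 falling, the part CACCAAA alone by 1032 genes, 58 rising and 225 falling, and both parts at separate places by 124 genes, 8 rising and 36 falling. The core CACCAA alone, in 1508 genes, went with 153 rises and 178 falls. Genes with 0, 1, 2 and 3 or more 7-base sites fell in 7.28%, 25.5%, 38.3% and 48.0% of cases. Over all alternatives the falling holders of the whole word numbered 188 to 269, and the falling genes with no core 355, without CA2 shRNA 1, to 838. Rising genes with no core numbered 677 without Scrambled 3 and 1886 without both Control 3 and Scrambled 2.

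**Figure D5:**
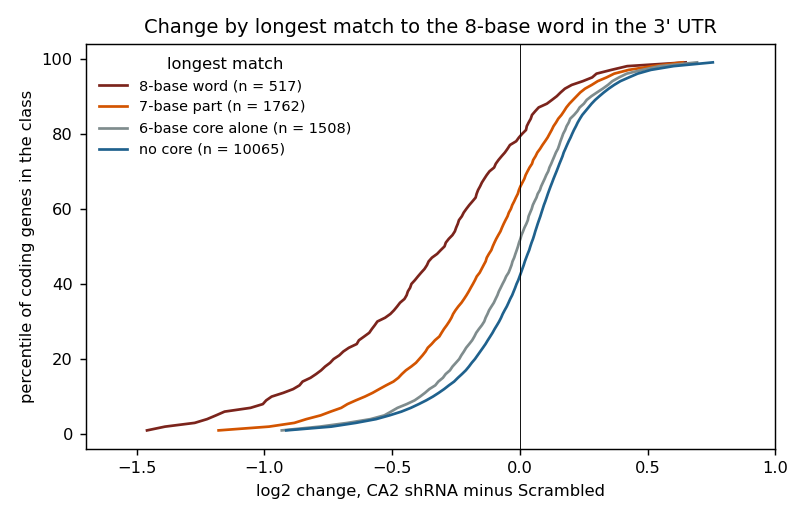
Cumulative percentile of coding genes (vertical axis) by log2 change, CA2 shRNA minus Scrambled (horizontal axis), for genes whose 3' UTR holds the whole word, a 7-base part, the 6-base core alone or no core. The curves are ordered by match length, with 45.6% of the 517 genes with the full word and 6.61% of the 10065 genes with no core falling.

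The difference was present at every length of the 3' UTR. In the decile of shortest 3' UTRs, with a median of 100 bases, 26.7% of genes with a 7-base part fell against 5.79% of genes with no core. In the decile of longest ones, with a median of 5520 bases, the shares were 24.1% and 5.84%, and the share was higher with the part in all 10 deciles. It was also higher in every decile of level, from 5.05% against 3.16% in the lowest to 46.8% against 8.47% in the highest. With the longest 3' UTR of each gene in place of the principal transcript's, 248 of 582 genes with the word fell. Of the 15910 7-base words held by at least 100 3' UTRs, ACACCAA had the lowest median change of its holders (-0.20) and CACCAAA the next (-0.15). The third, CGGACGC, was at -0.11.

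In coding sequences the same parts ranked lowest too. Of 16343 words held by at least 100 coding sequences, ACACCAA (-0.10) and CACCAAA (-0.09) came first and second. Among genes with no core in the 3' UTR, 428 held the whole word in the coding sequence, of which 10 rose and 116 fell, or 27.1% falling, against 3.03% of the 5284 genes with no core in either part. Without CA2 shRNA 1 the 116 became 74. Those 5284 genes had a median of 0.08, with 807 rises and 160 falls. The rises numbered 423 without Scrambled 3 and 1235 without both Control 3 and Scrambled 2, and the falls 79 without CA2 shRNA 3. In 28 genes both parts held the whole word, and of these 0 rose and 23 fell, with a median of -0.60. ACTR3, a subunit of the actin-nucleating ARP complex, was one of them, with a log2 change of -1.29. Only 13 genes held the word in the 5' untranslated region and in no other part, of which 1 rose and 1 fell, so a difference there was not detectable with so few genes. UBE2E3, a ubiquitin-conjugating enzyme with the word in its coding sequence and no core in its 3' UTR, fell by 0.89 on the log2 scale.

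Larger falls held the word more often. Beside the 35.8% of genes that fell 2-fold or more, it was in the 3' UTR of 24.2% of the 355 that fell 1.5 to 2-fold, 10.8% of the 1026 smaller falls and 2.44% of the 10803 genes that did not pass. Of the genes that rose 17 held it, 1 of them at 2-fold or more. A 7-base part was in the 3' UTR of 56.9% of the genes that fell 2-fold or more and 14.0% of those that did not pass. Of the 33 genes that rose 2-fold or more, 8 held such a part, or 24.2%, which is above the share among genes that did not pass, whereas of smaller rises 7.75% (1.5 to 2-fold) and 7.44% (under 1.5-fold) did. Of the 5066 genes with a 7-base part in the 3' UTR or the coding sequence 21.5% fell and 5.86% rose, against 4.54% and 14.4% of the 8786 genes without one. Among long noncoding genes, 14.3% of the 133 with the word anywhere in the transcript fell, 9.15% of the 470 with a 7-base part, and 5.35% of the 2488 with neither, whose median was still -0.21.

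Falls with no core were also found. CCN2, a matricellular growth factor, went from 136 ± 5.64 to 62.3 ± 1.15 CPM (SD, n = 3 each), a log2 change of -1.13 (SE 0.056, adjusted p = 4.83e-10 in edgeR), with no core in the transcript searched. The small GTPase CDC42 went from 154 ± 13.8 to 92.9 ± 2.6 CPM, and DIO2, a deiodinase that activates thyroid hormone, from 175 ± 13.8 to 103 ± 2.16 CPM. Rises with no core included TNFAIP3, a deubiquitinase that restrains nuclear factor kappa B, from 19.2 ± 0.267 to 38.7 ± 1.85 CPM, IL6R, a cytokine receptor, from 12.4 ± 1.13 to 24.4 ± 1.3 CPM, and DUSP5, a phosphatase of ERK kinases, from 11.8 ± 0.497 to 23.7 ± 1.62 CPM. SEMA3A, an axon guidance ligand, rose by 1.12 and holds the part ACACCAA. A guide with the seed UUGGUGU would pair with that part, and this was the seed (bases 2 to 8) of 0 of 2545 mature human microRNAs in the RefSeq table. Seeds that would pair with the part CACCAAA or with the core alone were not searched, and a part for microRNAs was not tested. Whether the hairpin carries that seed was not tested, since its sequence is not given in the sources used here.

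Gene families grouped by symbol, 62 in all, were counted by direction. Apart from the noncoding families, they hold protein-coding genes only. Their counts are thus to be read beside 11.2% higher and 10.7% lower over protein-coding genes, and 8.02% and 8.88% over all genes. Of 89 myosin, actin and actin-binding genes 2 rose and 24 fell, with a median of -0.10. Among the symbols on that list, which leaves out MARCKS and PALLD, LPP and ACTR3 fell most, and 13 of the 24 held a 7-base part in the 3' UTR or the coding sequence, while 73.1% of all searched falling genes did. Of 52 genes of the TGF-beta and BMP superfamily 6 rose and 17 fell, among them the ligand gene GDF7 at -1.07, and TGFBR3, a co-receptor, rose by 0.92. Of 95 homeobox genes, which encode transcription factors, 7 rose and 21 fell, with ONECUT2 and ZFHX2 (-1.0) lowest and HOXC8 (0.54) and HOXC11 (0.51) highest, and 18 of the 21 held a 7-base part. Of 62 kinesin and dynein genes, the motors of microtubules, 5 rose and 12 fell, and all 12 of the falling genes held one, KIF5C (-0.98) and DCTN5 (-0.87) among them. Leaving out CA2 shRNA 3 brought the falling actin-related genes to 13 and the falling homeobox genes to 13, and leaving out Scrambled 2 brought the rising actin-related genes to 8.

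Of 79 cadherin, protocadherin and claudin genes 4 rose and 12 fell, with the tight junction gene CLDN3 at -1.52 and the cadherin gene CDH11 at 0.90. Channels of potassium, calcium, sodium and the TRP family counted 16 falls and 8 rises of 103. Without CA2 shRNA 1 the falling cadherin-type genes numbered 6, and without Scrambled 3 the rising channel genes numbered 1. Other families rose more often than they fell, though not all of them more often than the 11.2% of protein-coding genes. Of 38 integrin and laminin genes 8 rose and 1 fell, led by LAMB3 (0.68) and the fibronectin receptor subunit ITGA5 (0.48). Of 46 semaphorin, plexin and ephrin genes 12 rose and 6 fell, with SEMA3A and SEMA7A (0.92) among the rises and SEMA3C (-1.21), which holds the 8-base word, lowest. Of 83 tumour necrosis factor, interleukin and chemokine genes 12 rose (14.5%) and 6 fell (7.23%). IL1R1, a receptor of interleukin with the word in its 3' UTR, was at -1.16. The 12 became 7 without Scrambled 3, and the 6 became 3 without CA2 shRNA 1.

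Of 76 chaperones 16 rose and 7 fell, with DNAJB9 (0.61), a partner of the endoplasmic reticulum chaperone BiP, highest among the rises, and 6 rose without CA2 shRNA 2. Of 91 subunits and assembly genes of the respiratory chain and ATP synthase 6 rose and 0 fell, with a median of 0.09. Those rises were 6.59% of the family, below the 11.2% of protein-coding genes that rose. They numbered 2 without Scrambled 3 and 25 without both Control 3 and Scrambled 2. Of 85 cytosolic ribosomal proteins 1 rose and 2 fell, and of 59 replication-dependent histones 0 rose and 2 fell, so most members of both families did not pass. The 507 ZNF zinc finger genes counted 17 rises and 43 falls with a median of -0.01. That balance rested on the libraries used, since the rises numbered 48 without both Control 3 and Scrambled 2 and the falls 23 without CA2 shRNA 1.

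The small RNA machinery, 14 genes, counted 5 rises and 1 fall, and 3 rises without Scrambled 3. DICER1, the nuclease that releases the guide duplex, went from 67.9, 85.5 and 84.0 CPM to 101, 112 and 108 CPM (log2 change 0.43, SE 0.0943, adjusted p = 0.00601 in edgeR). TNRC6A, a scaffold that Argonaute proteins recruit, rose by 0.35, whereas its paralog TNRC6B, which holds 7-base parts of the word, went from 111, 144 and 132 CPM to 73.2, 82.2 and 84.7 CPM (-0.69, SE 0.0834, adjusted p = 3.35e-05 in edgeR). AGO4 rose by 0.29, while AGO2 (0.25) and TARBP2 (0.35), a partner of Dicer, passed with calls lost in 5 and 2 alternatives. With only 1 falling member, whether the word separates rising from falling members cannot be told here. AGO2, which rose, holds the word whole in the 3' UTR, as do AGO1 and AGO3. DICER1 holds 2 sites of the part CACCAAA there, and 3 of the 5 rising genes hold a 7-base part in the 3' UTR or the coding sequence. AGO3 did not pass, at -0.36 (adjusted p = 0.0692 in edgeR), but its fall passed in 7 of 21 alternatives, with adjusted p from 0.00055 to 0.252 over all of them. AGO1, PRKRA, DROSHA, XPO5, RAN, TNRC6C and DGCR8 did not pass, at log2 changes of 0.07, 0.01, -0.05, 0.08, 0.13, 0.13 and -0.09.

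Across chromosomes other than the mitochondrial, 4.93% to 10.8% of genes rose and 7.36% to 11.9% fell, with the lowest share of rises on chromosome 19 and the highest on chromosome 11. Protein-coding genes of the longest decile of summed exon length had 108 rises and 247 falls, against 121 and 73 in the shortest decile, so that 17.6% fell in the longest and 5.18% in the shortest. Holders of a 7-base part numbered 169 in the shortest decile of searched sequence length and 1033 in the longest. Of those holders 25.4% and 22.4% fell, against 3.29% and 5.68% of genes without one. The part of length itself was not tested. In the decile of lowest GC content 165 rose and 101 fell, and in the highest 95 and 132.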

How the data were processed

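Each library has 1 table deposited by the authors, which lists for every gene a whole-number count, a CPM value and an RPKM value, per the file headers. Reads were handled with STAR 2.5.1a and featureCounts 1.4.6-p5 on GRCh38, per the submitters' processing notes. What annotation release, strand setting and rule for multiply mapped reads was used is not given in the sources used here, so overlapping or near-identical genes may share reads. Here, counts of all 9 libraries were filtered with filterByExpr by the 3 groups, scaled with TMM factors and fitted in edgeR 4.0.16 (R 4.3.3) with a term per group and robust quasi-likelihood, leaving 6 residual degrees of freedom. The contrast was CA2 shRNA less Scrambled, Benjamini-Hochberg adjusted over 19812 genes, with a threshold of 0.05. The fit was tested on simulated counts, where 59% of 100 changes of 1.5-fold and 85% of 100 changes of 2-fold were recovered. That simulation gave every gene the same spread and left out differences in quality between libraries. Printed gene levels are TMM-scaled CPM computed from the counts, except that NEAT1 levels and marker sums were scaled to library totals without TMM factors. Levels per length are the mean TMM-scaled CPM of Control divided by gene length. DESeq2 1.42.0 and limma 3.58.1 were alternatives. Gene types, 3' UTRs and coding sequences came from GENCODE 29 (principal transcript, then longest 3' UTR), with symbols for 60401 genes from a reference table and 246 from GENCODE. Named genes were CA2, the largest changes by level band and class among genes whose groups do not overlap, the largest gains and losses of CPM, the 5 smallest p-values, up to 2 each way per family, and genes with no core in the transcript searched. The members, families, words and lists were chosen with earlier results of these data known. Genes of X inactivation and the Y chromosome are not named.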

Additional observations from a re-analysis of the deposited data

How the results depend on the processing

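No named gene that passed in the main fit changed sign in up to 21 alternatives. Nearly all of them were picked because their groups do not overlap, so a change of sign was hardly possible. The sign was not followed for named genes that did not pass. Of all 283 named genes, 199 kept their call in each alternative. Rises numbered 864 without Scrambled 3 and 906 without CA2 shRNA 2, within 864 to 2357 over the fits without 1 library, and falls 1129 or 1164 when CA2 shRNA 1 or 3 was left out, within 1129 to 1876. Without both Control 3 and Scrambled 2, an alternative added after seeing the data, 2407 rose. At 1.5-fold or more 183 rose and 631 fell. The change of CA2 was -0.77 with no filter and -0.57 in a single thinning, and -0.91 to -0.67 over the fits without 1 library. The cause was not tested. Other splits were 1845 rises and 1526 falls in DESeq2, 1972 and 1696 at 1 CPM or more in 3 libraries, and 1372 and 1971 with upper-quartile factors. Offsets corrected for GC content gave 2261 rises and 2177 falls, and a fit of only the 6 libraries compared gave 1416 and 1510. With the replicate number as a block, 1638 rose and 1784 fell; same-numbered libraries deviated together only weakly (r of 0.0916, 0.0113 and 0.028), so the numbers are not taken as pairs. Depth limits the low genes: in the lowest decile of level the smallest called change was 0.50 on the log2 scale.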
